A study of Mus musculus with 14 samples.

Results

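The ETS family of transcription factors was followed through sorted mouse myeloid and dendritic cells by the 9 genes Spi1 (which encodes PU.1), Spib, Ets1, Ets2, Fli1, Elf1, Elf4, Etv3 and Etv6. The genes were taken by symbol and are 9 of the 20284 genes named on the arrays. They are read by 11 of 55681 probes, with 2 probes each for Ets1 and Elf1 and 1 for every other gene. All cells were from C57BL/6 mice and each of the 7 groups has 2 one-colour Agilent arrays, 14 in all. Granulocyte-monocyte progenitors (GMP), which can still form granulocytes and monocytes, came from wild-type bone marrow (WT GMP) and from the bone marrow of mice labelled as knockouts of Irf8 (IRF8KO GMP). Irf8 encodes a transcription factor needed for monocytes and for several dendritic cell types. Wild-type bone marrow also gave the common progenitor of dendritic cells (CDP), the later precursor bound to the classical subsets (pre-cDC) and mature neutrophils (Neu). Wild-type spleen gave CD4+ and CD8+ classical dendritic cells (cDC). For CD4+ cDC only magnetic beads were used and for neutrophils only flow sorting, whereas the other cells were bead-enriched and then flow-sorted. The pre-cDC gate took CD11c+ CD135+ CD172a+ cells without MHC class II. The knockout allele, the age of the mice and whether the 2 arrays of a group are separate animals are not given in the sources used here, so p-values measure the spread between these arrays, which may be technical.

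ETS factors share a winged-helix DNA-binding domain that reads sites built around the core GGAA, and they differ in partners and in whether they activate or repress. PU.1 is required for granulocytes, macrophages, dendritic cells and B cells, its dose matters for the choice between macrophage and granulocyte fates, and it binds composite sites together with IRF8 or IRF4. Spi-B, its closest relative, is known for its role in plasmacytoid dendritic cells and B cells. ETS1 and ETS2 are activators phosphorylated by the ERK kinases, FLI1 acts in stem cells and megakaryocytes, ELF1 and ELF4 are activators of immune genes, and ETV3 and ETV6 are repressors.

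Levels are log2 signals relative to the 75th percentile of the same array, and a level of one probe was not set against that of another. The signal was well above background for 39.4% to 53.7% of probes on the 12 arrays of the larger array design, and for 59.7% to 61.4% on the 2 CD4+ cDC arrays, which are of a smaller design. The CD4+ cDC arrays were compared only on the 39429 probes that both designs hold, with the percentile taken over those probes, which gives lower numbers on that scale. WT GMP and IRF8KO GMP shared a slide, as did CD8+ cDC and Neu. CDP, pre-cDC and CD4+ cDC each lay on a slide of their own. In every comparison other than IRF8KO against WT GMP and CD8+ cDC against Neu, group and slide cannot be told apart, and for CD4+ cDC the array design comes in addition. Defining transcripts were looked at in Neu and the splenic cDC, and no such check is given here for GMP, CDP or pre-cDC. The summed signal of 6 neutrophil markers was 7500 to 8050 times the 75th percentile in Neu and at most 46.7 times elsewhere on these 12 arrays. That of 6 markers of CD8+ cDC was 185 to 190 in CD8+ cDC and at most 14.2 elsewhere. Sirpa was 5.37 ± 0.06 (SE) higher in CD4+ than in CD8+ cDC, and Cd8a 8.65 lower (log2 difference -8.65 ± 0.17). Of 7 listed markers of CD4+ cDC, 5 were called higher there and 2 lower, Mgl2 (-0.47) and Notch2 (-0.56). Of the 6 markers of CD8+ cDC, 5 were called lower in CD4+ cDC, and Batf3 was not called (-0.30 ± 0.15). In such bulk samples, fewer cells with a transcript and less transcript per cell cannot be told apart. Irf8 itself was brighter on the arrays labelled IRF8KO (6.01) than in WT GMP (4.65) on its 1 probe. Whether that probe lies inside the deleted part was not analysed here, so it does not check the labels.

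**Figure D1:**
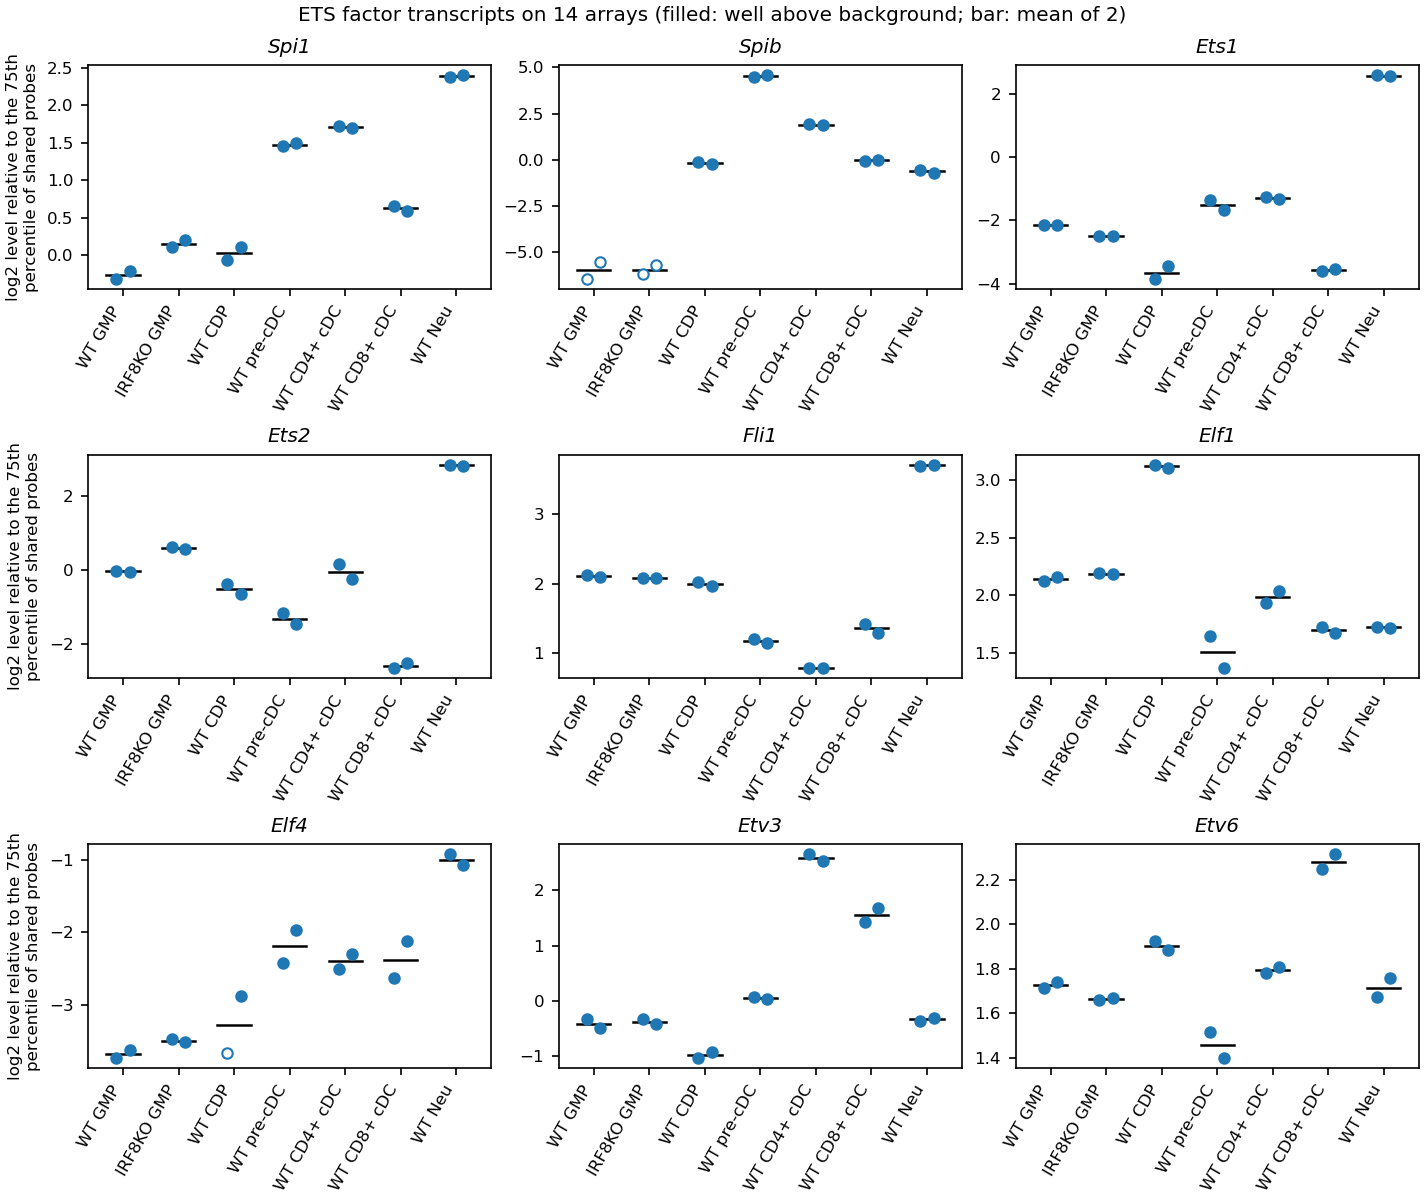
Level of each of the 9 ETS transcripts on all 14 arrays: the y axis is log2 signal relative to the 75th percentile of the probes shared by both array designs, the x axis gives the 7 groups, points are arrays (open where not well above background) and bars are means of 2. Spi1, Ets1, Ets2, Fli1 and Elf4 are highest in Neu, Spib in pre-cDC, Elf1 in CDP, Etv3 in CD4+ cDC and Etv6 in CD8+ cDC.

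PU.1 transcript was present in every group and differed between nearly all of them. Spi1 (NCBI Gene 20375, chromosome 2) read 0.69 and 0.80 on the WT GMP arrays, 1.16 and 1.23 in IRF8KO GMP, 1.06 and 1.24 in CDP, 2.42 and 2.42 in pre-cDC, 1.59 and 1.52 in CD8+ cDC and 3.25 and 3.27 in Neu. Neutrophils were the highest and WT GMP the lowest, and the arrays of IRF8KO GMP lay inside the range of the CDP arrays. In that order, Neu exceeded pre-cDC by 0.84 (adjusted p = 8.96e-06, limma with Benjamini-Hochberg adjustment over all genes tested, as for every adjusted p here), pre-cDC exceeded CD8+ cDC by 0.86 (adjusted p = 1.62e-05) and CD8+ cDC exceeded IRF8KO GMP by 0.36 (adjusted p = 0.00215). IRF8KO GMP and CDP were not separated beyond their spread (difference 0.04, adjusted p = 0.605). On the shared-probe scale the CD4+ cDC read 1.73 and 1.70, between pre-cDC (1.45 and 1.5) and Neu (2.38 and 2.4) and without overlap with either. Of the 15 pairs among the 6 groups of the larger design, 14 were called different for Spi1, where the mean over all genes is 79.8% of pairs. The range of its group means was 2.51, close to the median range of 2.58 over all genes. Among 12766 other genes that were well above background in at least 1 group and spanned at least 1 log2 unit, the profiles over the 6 group means most like that of Spi1 were those of Wwc1 (Pearson r = 0.997), Ppp1r18 (0.997), Gprc5d (0.995), Slc28a1 (0.992) and Borcs6 (0.989). With 6 points, a high r is easily reached, and these values are a description.

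Spib stood highest in pre-cDC and spanned 5.21 over the 4 groups of the larger design in which it was well above background. The gene (NCBI Gene 272382, chromosome 7) was not well above background on any of the 4 GMP arrays. It read 1.0 and 0.92 in CDP, 5.43 and 5.49 in pre-cDC, 0.86 and 0.94 in CD8+ cDC and 0.30 and 0.19 in Neu. Its pre-cDC arrays therefore stood more than 4 log2 units above every other array of that design. CDP, CD8+ cDC and Neu lay close together, and both GMP groups lay below them. CDP and CD8+ cDC were not separated (difference 0.06, adjusted p = 0.855). CD8+ cDC against Neu, which shared a slide, gave 0.66 ± 0.28 (SE, adjusted p = 0.0533), and 7 of 13 alternatives called Spib higher there, with adjusted p from 0.000107 to 0.0441, among them the fit of those 4 arrays alone (0.00207). On the shared-probe scale CD4+ cDC read 1.92 and 1.88, below pre-cDC (4.46 and 4.57) and above CD8+ cDC (-0.07 and 0.01). The profiles most like it over the 6 group means were those of Clcn5 (r = 0.998), Dync1li2 (0.983) and Zfp382 (0.978).

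Markers of plasmacytoid dendritic cells, in which Spib is known to be active, were higher along with Spib in pre-cDC and did not follow it in every comparison. In pre-cDC, 7 of the 8 listed markers were called higher than in CDP, where 25.3% of all genes tested were. The increase ran from 0.93 ± 0.11 (SE) for Siglech to 4.17 ± 0.26 for Ly6d among those measured in both groups, was at least 47.4-fold for Ccr9 and at least 7.25-fold for Klk1. Bst2 differed by 0.21 ± 0.12 (adjusted p = 0.137). The summed signal of the 8 was 624 to 639 in pre-cDC against 298 to 303 in CDP, 248 to 300 in CD8+ cDC, 132 to 162 in the 2 GMP groups and 418 to 428 in Neu. Ly6d read 6.65 in pre-cDC and 2.48 in CDP, Tcf4 4.89 and 3.33, and Cox6a2 5.95 and 4.33. Siglech and Pacsin1 were bright in all 6 groups (Siglech 6.67 to 8.45), and Siglech was brightest in Neu, where Spib was low. These 2 genes made up most of the sum in Neu. Bst2 (0.73), Ly6d (0.33), Tcf4 (-0.56) and Cox6a2 (-1.4) read lower in Neu than in CDP. Spib was also called higher in CDP against WT GMP, in CD4+ against CD8+ cDC and in Neu against WT GMP. In CDP against WT GMP, 5 of 6 tested plasmacytoid markers were called higher and 1 lower, where 51% and 26.9% of all genes tested were. In CD4+ against CD8+ cDC, 3 of 8 were called higher and 3 lower, where 36.3% and 38.6% of all genes were. In Neu against WT GMP, 3 of 6 were called higher and 3 lower, where 47% and 45.1% of all genes were. Of 7 B-cell markers, whose cells also use Spib, 2 were well above background on both pre-cDC arrays, and their summed signal was 13.9 to 14.2 there against 28.9 to 29.9 in CDP. The part of either cell type in the Spib level was not tested.

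**Figure D2:**
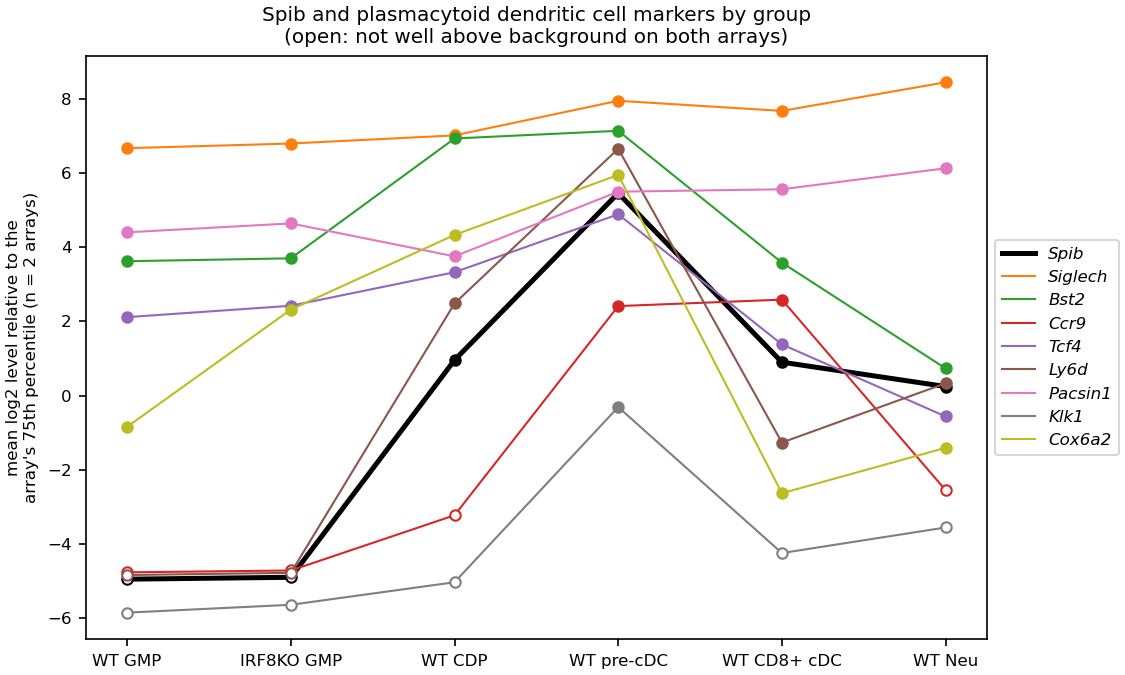
Mean level of Spib (thick black line) and of 8 plasmacytoid dendritic cell markers in the 6 groups of the larger array design: the y axis is log2 signal relative to the array's 75th percentile (n = 2 arrays a group), the x axis gives the groups, and open points were not well above background on both arrays. Spib, Ly6d, Tcf4, Cox6a2, Klk1 and Bst2 have their highest mean in pre-cDC, Siglech and Pacsin1 in Neu and Ccr9 in CD8+ cDC. Bst2 was not separated between pre-cDC and CDP (adjusted p = 0.137), nor Ccr9 between CD8+ cDC and pre-cDC (adjusted p = 0.497).

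The stretch of 250 bases before the transcription start is given here for Spib, since its transcript was not well above background in GMP and was highest in pre-cDC. Sequences are RefSeq promoters of build GRCm38.p6, 5′ to 3′ on the gene's strand, with capitals marking the ETS core GGAA on either strand (TTCC on the strand shown). RefSeq promoters were matched for 6 of the 9 genes, in 8 windows. The Spib window, chr7:44532072-44532321 on the minus strand, holds 1 core.
Spib: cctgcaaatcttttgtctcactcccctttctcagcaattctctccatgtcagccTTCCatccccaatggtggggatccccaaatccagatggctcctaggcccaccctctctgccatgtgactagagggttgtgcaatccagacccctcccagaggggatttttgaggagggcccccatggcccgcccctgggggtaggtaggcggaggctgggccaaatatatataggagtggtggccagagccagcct
A core of 4 letters is common: 93.4% of all 32851 promoters of that length hold at least 1, with a median of 3. On both strands, the longer PU.1-type site GAGGAAGT (2.44% of promoters), the ETS-IRF composite of GGAA and GAAA with 2 bases between them (2.3%) and the tandem of GAAA and GAAA with 2 bases between them (2.98%) were searched, and none of the 8 windows holds one. The composite and the long site overlap the core where they occur. The searched letters describe these windows only.

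Ets1 and Ets2, the ERK-regulated activators, had their highest levels in neutrophils. Ets1 (NCBI Gene 23871, chromosome 9) read -1.12 and -1.14 in WT GMP, -1.45 and -1.45 in IRF8KO GMP, -2.72 and -2.32 in CDP, -0.40 and -0.75 in pre-cDC, -2.68 and -2.61 in CD8+ cDC and 3.46 and 3.43 in Neu. Neutrophils stood 4.02 above pre-cDC, the next group (adjusted p = 3.24e-08). CDP and CD8+ cDC, at the bottom, were not separated (difference 0.13, adjusted p = 0.441), and their array values overlapped. Ets2 (NCBI Gene 23872, chromosome 16) read 0.98 and 0.97 in WT GMP, 1.66 and 1.61 in IRF8KO GMP, 0.73 and 0.49 in CDP, -0.20 and -0.56 in pre-cDC, -1.74 and -1.59 in CD8+ cDC and 3.71 and 3.69 in Neu. No groups overlapped, and all 15 pairs of the 6 groups were called different, with CD8+ cDC the lowest. On the shared-probe scale the CD4+ cDC arrays read 0.16 and -0.26 for Ets2, which overlaps WT GMP (-0.02 and -0.05, adjusted p = 0.939), and -1.25 and -1.33 for Ets1, next to pre-cDC. Profiles most like Ets2 were those of Arhgef3 (r = 0.998), Mgst2 (0.996) and Hp (0.994), and those most like Ets1 were Oas3 (0.996), Dennd3 (0.995) and Hsd17b7 (0.995), each over 6 group means. The T and NK cell markers, whose cells express Ets1, summed to 6.04 to 6.13 in Neu and 7.41 to 11 in pre-cDC against 2.46 to 2.59 in WT GMP. They also summed to 4.49 to 4.87 in CDP and 3.73 to 3.91 in CD8+ cDC, where Ets1 was lower than in WT GMP, and their part in the Ets1 levels was not tested.

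The 2 probes of Ets1 were both highest in Neu. The second probe, A_52_P194250, read -0.72 in WT GMP, -1.78 in pre-cDC and 2.31 in Neu, and it was not well above background in CDP or CD8+ cDC, where the brighter probe A_52_P232830 still was. The 2 probes of Elf1 differed in pattern. Between CDP and pre-cDC the brighter Elf1 probe, A_55_P1989405, dropped by 1.79 and the second, A_52_P1034698, by 0.07. The exons that each probe reads were not analysed here.

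**Figure D3:**
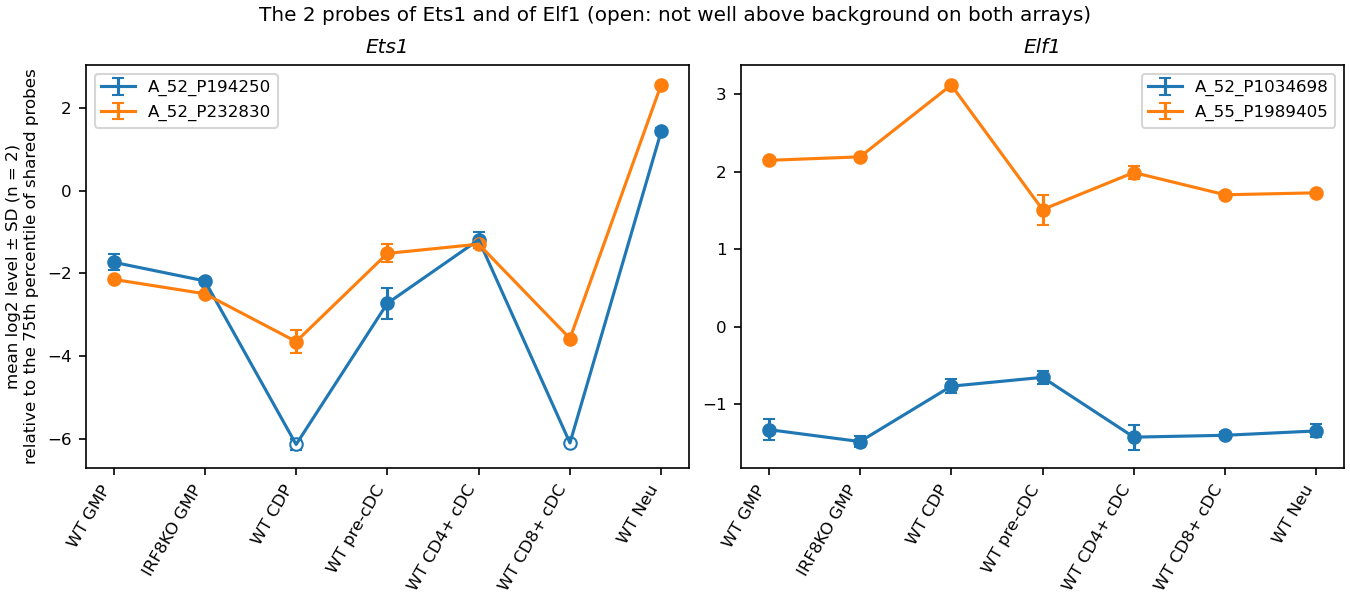
Mean level ± SD (n = 2 arrays) of the 2 probes of Ets1 and of Elf1 in all 7 groups, on the shared-probe scale (log2, y axis); open points were not well above background on both arrays. Both Ets1 probes peak in Neu, whereas for Elf1 the brighter probe is highest in CDP and the second differs less between the groups.

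Ets2 is shown with Elf4 because both transcripts were highest in neutrophils. The Ets2 window, chr16:95702157-95702406 on the plus strand, holds 1 GGAA core, which ends next to the transcription start. One of the 2 Elf4 windows, chrX:48463133-48463382 on the minus strand, holds 6 cores, against the median of 3.
Ets2: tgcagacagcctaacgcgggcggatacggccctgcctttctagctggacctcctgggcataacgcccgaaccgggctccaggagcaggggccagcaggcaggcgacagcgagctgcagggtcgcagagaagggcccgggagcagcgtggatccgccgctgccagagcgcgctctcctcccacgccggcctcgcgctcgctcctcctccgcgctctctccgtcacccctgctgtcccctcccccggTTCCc
Elf4: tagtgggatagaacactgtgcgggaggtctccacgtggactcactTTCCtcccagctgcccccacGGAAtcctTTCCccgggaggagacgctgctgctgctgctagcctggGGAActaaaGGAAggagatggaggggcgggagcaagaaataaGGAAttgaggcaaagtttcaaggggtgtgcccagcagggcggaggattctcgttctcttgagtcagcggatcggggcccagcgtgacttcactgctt
The other Elf4 window holds 2 cores.

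Fli1 was well above background in every group and highest in neutrophils. Fli1 (NCBI Gene 14247, chromosome 9) ranged from 3.1 to 3.14 over the 6 arrays of WT GMP, IRF8KO GMP and CDP, and no pair of these groups was called different. It read 2.16 and 2.07 in pre-cDC, 2.35 and 2.22 in CD8+ cDC and 4.56 and 4.59 in Neu. The profiles most like it were those of Slmap (r = 0.999) and Fbxo30 (0.996).

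Elf1, read by its brighter probe, was highest in CDP, and Elf4 was highest in neutrophils. Elf1 (NCBI Gene 13709, chromosome 14) read 4.25 and 4.24 in CDP and ranged from 3.13 to 3.24 over the 4 GMP arrays. CD8+ cDC, Neu and pre-cDC followed at 2.29 to 2.65 and were not separated from their neighbours in the order (adjusted p = 0.716 and 0.178). On the second Elf1 probe pre-cDC (0.289) stood next to CDP (0.361), with the other groups from -0.476 to -0.315. On the shared-probe scale that probe read -0.654 in pre-cDC and -0.768 in CDP. Elf4 (NCBI Gene 56501, chromosome X) read -2.73 to -1.74 in the progenitors, and 1 of the 2 CDP arrays was not well above background. It read -1.46 and -1.05 in pre-cDC, -1.70 and -1.19 in CD8+ cDC and -0.06 and -0.20 in Neu. The profiles most like Elf1 were those of Chd4 (r = 0.997), Rbks (0.996) and Ppm1d (0.991). Those most like Elf4 were Nkain1 (0.999), Card6 (0.998) and Madcam1 (0.997). Within the family, Elf4 and Spi1 had the most similar profiles over the 6 group means (r = 0.966), followed by Ets2 and Fli1 (r = 0.94).

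Of the repressors, Etv3 was highest in the 2 mature dendritic cell groups and Etv6 in CD8+ cDC. Etv3 (NCBI Gene 27049, chromosome 3) read 0.67 and 0.52 in WT GMP, 0.70 and 0.60 in IRF8KO GMP, 0.08 and 0.20 in CDP, 1.03 and 0.96 in pre-cDC, 2.36 and 2.61 in CD8+ cDC and 0.50 and 0.56 in Neu. Both GMP groups and Neu overlapped, CDP stood below them and CD8+ cDC far above. On the shared-probe scale the CD4+ cDC arrays, at 2.66 and 2.53, were higher still than CD8+ cDC (1.43 and 1.68). Etv6 (NCBI Gene 14011, chromosome 6) moved least: its group means spanned 0.81, a range below that of all but 2.63% of genes. Its array values ran from 2.32 in pre-cDC to 3.25 in CD8+ cDC. The profiles most like Etv3 were those of 3830403N18Rik (r = 0.988), Pla2g2d (0.986) and Tm4sf5 (0.984), and those most like Etv6 were Mif4gd (0.985), Hsdl2 (0.975) and Eme2 (0.971). The Etv3 window, chr3:87525328-87525577 on the plus strand, is shown because Etv3 was called higher in both mature dendritic cell groups than in pre-cDC. It holds 6 GGAA cores.
Etv3: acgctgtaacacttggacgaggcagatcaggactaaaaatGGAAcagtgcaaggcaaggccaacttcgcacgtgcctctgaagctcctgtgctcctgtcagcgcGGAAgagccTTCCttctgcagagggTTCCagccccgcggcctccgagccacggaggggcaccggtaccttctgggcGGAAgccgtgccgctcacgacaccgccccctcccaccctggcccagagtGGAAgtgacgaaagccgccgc
Etv6 holds 3 cores in its window, and the 2 Elf1 windows hold 2 and 0.

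The first comparison asked how the Irf8 knockout bears on the family in GMP. Spi1 was 0.45 ± 0.07 (SE, n = 2 against 2) higher on the arrays labelled IRF8KO, a 1.36-fold difference (adjusted p = 0.00387), and Ets2 was 0.66 ± 0.13 higher, 1.58-fold (adjusted p = 0.00746). These were the 2 of 8 tested genes that passed, both upward, where 25.5% of all 12156 genes tested were called, 15.4% higher and 10.1% lower, so the share is that of the background. Ets1 gave -0.32 ± 0.15 (adjusted p = 0.156), without overlap of the arrays. Fli1 gave -0.01 ± 0.06, Elf1 0.07 ± 0.09, Elf4 0.21 ± 0.28, Etv3 0.06 ± 0.10 and Etv6 -0.04 ± 0.07, none of them called. Spib was not well above background in either group. Since both groups lay on 1 slide, the 4 arrays alone give the within-slide values: Spi1 kept its call (adjusted p = 0.0111), as did Ets2 (adjusted p = 0.00197), and Ets1, read by its second probe, gave -0.42 (adjusted p = 0.0419). Without IRF8KO GMP replicate 1 the adjusted p of Ets2 was 0.0515.

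Genes that PU.1 is known to drive were mostly higher on the same arrays. Of 18 tested PU.1 target genes, 10 were called higher and 1 lower, where 15.4% of all genes tested were called higher and 10.1% lower. Their median difference was 0.53 against 0.03 over all genes tested. Flt3, a cytokine receptor of dendritic progenitors, was 1.5 ± 0.17 higher, Cybb, a subunit of the phagocyte oxidase, 1.12 ± 0.24, the macrophage receptor gene Csf1r 1.11 ± 0.05 and the lysozyme gene Lyz2 0.99 ± 0.13. Ctss was the 1 that was lower. Of 13 tested partners and antagonists of PU.1, 5 were called higher and 2 lower. The 2 were Gata1 (-2.70 ± 0.18) and Gata2 (-2.21 ± 0.22), erythroid, megakaryocyte and mast cell factors, and Gfi1, a granulocyte repressor, was 1.03 ± 0.19 higher. Other-lineage markers moved at the same time. The summed signal of 6 neutrophil markers was 9.31 to 9.47 in WT GMP and 34.3 to 36.4 in IRF8KO GMP, and that of 6 monocyte markers 40 to 41.5 and 117 to 124. For 6 basophil and mast cell markers it was 91.3 to 94.6 in WT GMP and 31.6 to 32.2 in IRF8KO GMP, and for 7 erythroid and megakaryocyte markers 107.2 to 110.3 and 27.9 to 28.7. Csf1r and Cd14 stand on both the target and the monocyte list. The part of these lineages in the Spi1 and Ets2 differences was not tested. All 6 megakaryocyte genes driven by FLI1 were called lower, Gp1ba by most (-2.34 ± 0.21), while Fli1 itself differed by less than its standard error.

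**Figure D4:**
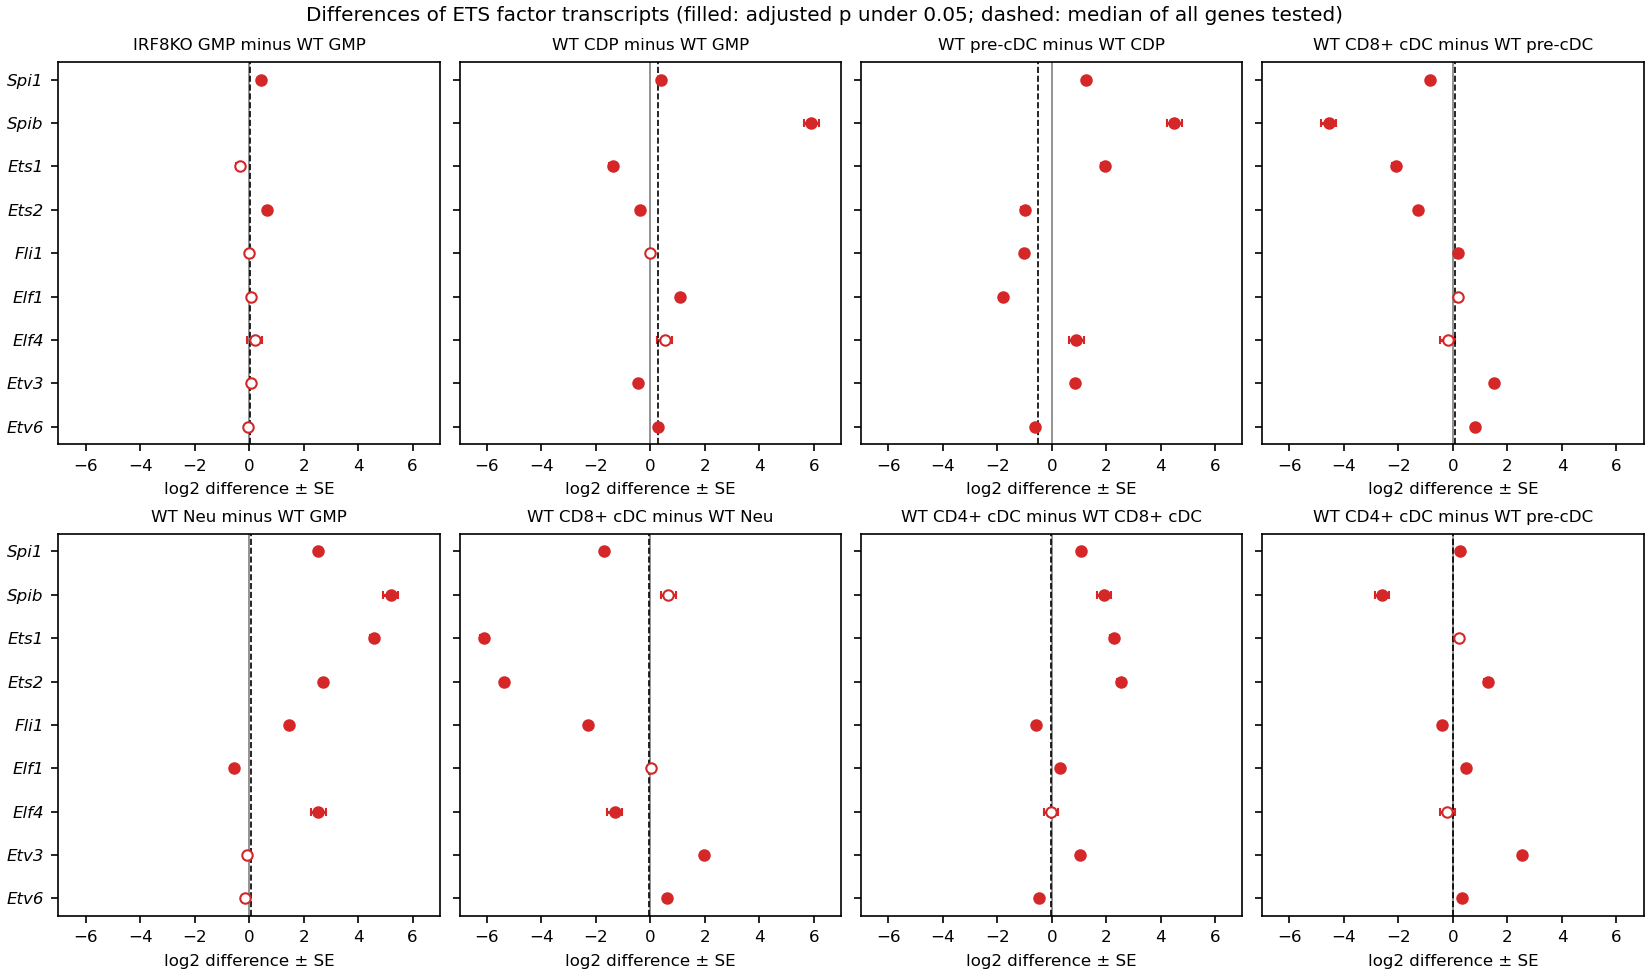
Log2 difference ± SE of each ETS transcript (rows) in the 8 comparisons (panels); filled points passed an adjusted p of 0.05, the solid line marks 0 and the dashed line the median of all genes tested. The 2 called genes of the GMP panel lie within 0.66 of 0, whereas Ets1 and Ets2 differ by more than 5 between CD8+ cDC and Neu.

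From WT GMP to CDP, the step into the dendritic lineage, Spib appeared, Elf1 rose and Ets1 fell. Spib was at least 27.2-fold higher in CDP (adjusted p = 5.14e-07), a bound set by the lowest signal well above background on the GMP arrays, as for all such folds here. Elf1 was 1.09 ± 0.09 higher (adjusted p = 1.42e-05) and Ets1 1.39 lower (log2 difference -1.39 ± 0.15, adjusted p = 4.74e-05). Spi1 (0.41 ± 0.07) and Etv6 (0.29 ± 0.07) were also called higher, and Etv3 (-0.46 ± 0.10) and Ets2 (-0.36 ± 0.13) lower, which makes 7 of 9 called, where 77.9% of 11899 genes were (51% higher, 26.9% lower). Several of these depend on the scaling. The median of all genes was itself 0.29 higher in CDP and moved between -0.20 and 0.31 with the scaling. Relative to that median Spi1 was 0.12 and Etv6 0.00 higher. With the percentile taken over probes well above background on all arrays Spi1 turned to -0.09 and Etv6 to -0.20, and with normexp background correction Spi1 was 0.01 and Ets1 -0.11 (adjusted p = 0.178). Fli1, at -0.01 ± 0.06, was called lower under 4 of the alternatives, at -0.41 to -0.50. Ets2 lost its call without WT GMP replicate 1 (adjusted p = 0.093), WT GMP replicate 2 (0.0808) or WT CDP replicate 2 (0.162).

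Around them, 7 of 11 tested other ETS genes were called higher in CDP and none lower, where 51% of all genes were higher and 26.9% lower. Among the 7 were Elk4 (1.62 ± 0.11), Elk1 (1.27 ± 0.13), Etv5 (1.2 ± 0.07) and Erf (1.17 ± 0.10). The median over the 11 was 0.56 against 0.29 over all genes, a median that moved with the scaling as given above. Of 19 tested PU.1 targets 11 were higher and 5 lower, with a median of 0.44 against the same 0.29. Ctss (4.49 ± 0.06), Csf1r (3.92 ± 0.05) and the Fc receptor chain Fcer1g (3.66 ± 0.06) led upward, and the granule protease gene Elane was 5.03 lower (log2 difference -5.03 ± 0.05). Among PU.1 partners Irf8 was 4.12 ± 0.07 higher, and Cebpe (-6.50), Gata2 (-5.55) and Gata1 (-4.39), factors of granulocytes and of the erythroid and mast cell lines, were lower. The monocyte markers, which include Csf1r, summed to 574 to 577 in CDP against 40 to 41.5 in WT GMP, and their part was not tested.

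From CDP to pre-cDC all 9 genes were called different, 5 higher and 4 lower, where 83.9% of 11481 genes were called (25.3% higher, 58.7% lower). Spib was 4.5 ± 0.28 higher (22.6-fold, adjusted p = 1.80e-06), Ets1 1.95 ± 0.15 (3.87-fold, adjusted p = 5.42e-06), Spi1 1.27 ± 0.07 (2.41-fold, adjusted p = 1.39e-06), Elf4 0.89 ± 0.28 and Etv3 0.85 ± 0.10. Elf1 was lower by -1.79 ± 0.09 (-0.07 on its second probe), Fli1 by -1.01 ± 0.06, Ets2 by -0.99 ± 0.13 and Etv6 by -0.63 ± 0.07. The median of all genes was -0.49 here, and between -1.01 and 0.01 by scaling. Relative to it Etv6 was at -0.14, and its range over the alternatives included 0 (-0.75 to 0.03). Elf4 lost its call under 7 of 13 alternatives, among them the fits without WT CDP replicate 1, whose Elf4 signal was not well above background (adjusted p = 0.0961), and without WT pre-cDC replicate 2 (adjusted p = 0.0985). Etv3 lost it with array medians (adjusted p = 0.0827) and Etv6 with the percentile over detected probes (adjusted p = 0.114).

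PU.1 targets and partners moved both ways at this step, where 25.3% of all genes were called higher and 58.7% lower. The median over the tested targets was 0.33 and over the tested partners 0.04, against -0.49 over all genes. Of 18 tested targets 10 were higher, with Cybb (3.39 ± 0.24) and the integrin gene Itgb2 (2.42 ± 0.08) in front, and 4 lower, with Mpo (-3.40 ± 0.08) and Prtn3 (-2.47 ± 0.09), genes of progenitor granules. Of 14 tested partners 5 were higher and 6 lower: Irf4, which pairs with PU.1 in dendritic cells, was 3.28 ± 1.16 higher and Jun 2.80 ± 0.16, while Gfi1 (-2.09 ± 0.19) and Myb (-1.98 ± 0.07) were lower. The summed neutrophil markers rose from 1.18 to 1.2 in CDP to 44.9 to 46.7 in pre-cDC, and the basophil and mast cell markers from 4.45 to 4.67 to 32.4 to 37. Their part in the ETS differences was not tested.

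CD8+ cDC, compared with pre-cDC, had less of the SPI and ETS members and more of the ETV repressors. Spib was lower by -4.56 ± 0.28 (23.5-fold, adjusted p = 2.18e-06), Ets1 by -2.08 ± 0.15, Ets2 by -1.28 ± 0.13 and Spi1 by -0.86 ± 0.07 (1.82-fold, adjusted p = 1.62e-05). Etv3 was 1.49 ± 0.10 higher (2.81-fold, adjusted p = 3.62e-06), Etv6 0.81 ± 0.07 and Fli1 0.17 ± 0.06 (adjusted p = 0.0309). This makes 7 of 9, where 74.8% of 12597 genes were called (39.9% higher, 34.9% lower). Elf1 (0.18 ± 0.09) and Elf4 (-0.20 ± 0.28) were not called, and the mean over both Elf1 probes gave -0.29 (adjusted p = 0.0117), the opposite direction. The call for Fli1 was lost under 5 of 13 alternatives, including those without WT pre-cDC replicate 2 (adjusted p = 0.146) and without WT CD8+ cDC replicate 1 (adjusted p = 0.17). Of 20 tested PU.1 targets 8 were higher and 12 lower, and of 15 partners 2 were higher, Egr2 and Egr1, and 11 lower, with Cebpa (-3.36 ± 0.07) and Cebpb (-3.04 ± 0.12), the C/EBP factors of granulocytes and macrophages. All 6 markers of CD8+ cDC were higher. Of the plasmacytoid markers 5 of 8 were lower and none higher. The summed signal went from 191 to 192 in pre-cDC to 22.9 to 24.1 in CD8+ cDC for the monocyte markers, from 32.4 to 37 to 0.236 to 0.283 for the basophil and mast cell markers and from 44.9 to 46.7 to 17.8 to 18.9 for the neutrophil markers. For the erythroid and megakaryocyte markers it went from 7.16 to 7.28 to 163 to 176. Of the 5 of these that were tested, however, only 1 was called higher and 4 were called lower, with a median of -2.08. The part of these cell types in the ETS and PU.1 target differences was not tested.

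Neutrophils, compared with the GMP that precede them, had more of 6 members and less of 1. Ets1 was 4.58 ± 0.15 higher (23.9-fold, adjusted p = 1.30e-08), Ets2 2.73 ± 0.13 (6.62-fold, adjusted p = 1.24e-07), Elf4 2.54 ± 0.28 (5.80-fold, adjusted p = 3.46e-05), Spi1 2.51 ± 0.07 (5.71-fold, adjusted p = 8.16e-09) and Fli1 1.45 ± 0.06 (2.73-fold, adjusted p = 5.96e-08). Spib was at least 16.6-fold higher, and Elf1 was lower by -0.56 ± 0.09. That is 7 of 9 called, in a comparison in which 92.2% of 12520 genes were called (47% higher, 45.1% lower), so the count says little. The median over the 9 genes was 2.51 against 0.07 over all genes. The 9 were chosen with earlier results of these data known, so this median is a description only. Etv3 (-0.07 ± 0.10) and Etv6 (-0.16 ± 0.07, adjusted p = 0.0522) were not called. Etv6 was called lower under 6 of 13 alternatives, 5 of them other scalings or backgrounds. Etv3 was called lower with array medians (-0.58, adjusted p = 0.00773) and with the percentile over detected probes (-0.44, adjusted p = 0.00205). Of 19 tested PU.1 targets 15 were higher, with Cybb (6.81 ± 0.24), Lyz2 (6.59 ± 0.13) and Itgb2 (5.91 ± 0.08) in front, and 4 lower, with the progenitor granule genes Prtn3 (-7.86 ± 0.09) and Elane (-5.76 ± 0.05). Among other ETS genes 9 of 12 were higher and 3 lower. Elk4 (1.78 ± 0.11), Elk1 (1.64 ± 0.13) and Etv4 (1.51 ± 0.07) led upward, and Elk3, which can act as a repressor, was lower by -1.81 ± 0.06. Of 10 tested co-regulators, kinases and ligase subunits that act on ETS factors, 4 were higher and 5 lower. Their median was -0.17 against 0.07 over all genes. Among the higher ones, Mapk3, the gene of the kinase ERK1, gave 2.89 ± 0.06, and Cop1, part of a ubiquitin ligase that removes ETS proteins, 1.95 ± 0.06.

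CD8+ cDC and neutrophils were hybridised on 1 slide, and Ets1 and Ets2 were both far lower in CD8+ cDC. Ets1 was lower in CD8+ cDC by -6.09 ± 0.15 (68.2-fold, adjusted p = 3.42e-09), Ets2 by -5.37 ± 0.13 (41.3-fold, adjusted p = 3.08e-09), Fli1 by -2.29 ± 0.06 (4.89-fold), Spi1 by -1.71 ± 0.07 (3.26-fold) and Elf4 by -1.32 ± 0.28 (2.49-fold). Etv3 was 1.96 ± 0.10 higher (3.88-fold, adjusted p = 2.76e-07) and Etv6 0.63 ± 0.07. These were 7 of 9, where 86.2% of 12817 genes were called (42.7% higher, 43.5% lower). Elf1 gave 0.04 ± 0.09, and 3 of 13 alternatives, all of them other scalings, called it higher. Of 20 tested PU.1 targets 17 were lower in CD8+ cDC, and the 2 that were higher were Flt3 (8.65 ± 0.17) and Ctss. Cebpe (-11.75 ± 0.15), a factor of granule formation, and Irf8 (8.53 ± 0.07) differed most among the partners.

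The 2 splenic dendritic cell types differed in 8 of the 9 genes, where 74.9% of 13547 genes were called (36.3% higher, 38.6% lower). In CD4+ cDC, Ets2 was 2.55 ± 0.15 higher (5.84-fold, adjusted p = 8.90e-07), Ets1 2.29 ± 0.13 (4.88-fold, adjusted p = 6.72e-07), Spib 1.93 ± 0.26 (3.80-fold, adjusted p = 0.000153), Spi1 1.09 ± 0.07 (2.13-fold, adjusted p = 1.46e-06), Etv3 1.04 ± 0.10 (2.05-fold) and Elf1 0.29 ± 0.09 (adjusted p = 0.0132). Fli1 was lower by -0.57 ± 0.06 and Etv6 by -0.48 ± 0.06. Elf4 gave -0.03 ± 0.27. Elf1 lost its call with the mean over its 2 probes (adjusted p = 0.177), without WT CD4+ cDC replicate 2 (0.078) and without WT CD8+ cDC replicate 2 (0.062), and Etv6 with array medians (0.142). Of 15 tested partners of PU.1, 10 were higher in CD4+ cDC and 3 lower, with a median of 1.17 against -0.02 over all genes. Irf8 was lower in CD4+ cDC by -5.21 ± 0.11, while Irf4 (4.12 ± 1.09), Cebpb (2.47 ± 0.11) and Gata1 (4.05 ± 0.30) were higher. Of 21 PU.1 targets 10 were higher, with Cybb (4.12 ± 0.23), Fcer1g (3.42 ± 0.06) and Csf1r (2.89 ± 0.08), and 5 lower, with Elane (-2.47 ± 0.08). The CD4+ cDC, which were not flow-sorted, also had higher levels of 6 of 6 neutrophil markers (median 2.06), 5 of 6 monocyte markers (median 2.84) and 7 of 7 erythroid and megakaryocyte markers (median 1.97). The part of such cells in the ETS differences was not tested.

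Against pre-cDC, CD4+ cDC had 7 of 9 genes called, where 76.9% of 13273 genes were (38% higher, 38.9% lower). Etv3 was 2.54 ± 0.10 higher (5.83-fold, adjusted p = 3.69e-08), Ets2 1.28 ± 0.15 (2.42-fold), Elf1 0.48 ± 0.09, Etv6 0.34 ± 0.06 and Spi1 0.24 ± 0.07 (adjusted p = 0.0123). Spib was lower by -2.62 ± 0.26 (6.14-fold, adjusted p = 1.69e-05) and Fli1 by -0.39 ± 0.06. Ets1 gave 0.22 ± 0.13 (adjusted p = 0.147), and 5 of 13 alternatives called it higher, among them the mean over its probes (0.88, adjusted p = 0.000223) and the fit without WT pre-cDC replicate 1 (0.38, adjusted p = 0.0394). For Elf1 the mean over probes gave -0.15, the opposite direction. Spi1 lost its call without WT pre-cDC replicate 1 (adjusted p = 0.0567), without WT CD4+ cDC replicate 1 (0.0522) and in the fit of the 4 arrays alone (0.0627), and Fli1 lost it with array medians (-0.04, adjusted p = 0.726). Etv3 was thus called higher than pre-cDC in both cDC types. These 2 comparisons share the pre-cDC arrays, and the values stand side by side at 2.54 in CD4+ and 1.49 in CD8+ cDC. All 8 plasmacytoid markers were lower in CD4+ cDC than in pre-cDC, and their part in the lower Spib was not tested.

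The share of called genes that were higher moved by over 10 percentage points with the scaling in 5 of the 8 comparisons. In the GMP comparison it was 60.3%, and 50.8% to 65.9% with other scalings, and in Neu against WT GMP it was 51%, and 42.2% with array medians. From WT GMP to CDP it was 65.5%, and 40.4% with the percentile over detected probes. From CDP to pre-cDC it was 30.1%, and 16.6% to 51.1% with other scalings. It went from 53.4% to 65.2% for CD8+ cDC against pre-cDC, from 48.5% to 63.6% for CD4+ against CD8+ cDC and from 49.4% to 64.6% for CD4+ cDC against pre-cDC, each with array medians.

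Other members of the family were measured with the same arrays. Of 17 further ETS genes, 9 to 14 were well above background on a given array. Erg, the close relative of Fli1, was present in WT GMP (-0.79), IRF8KO GMP (-1.06), CDP (-0.30) and Neu (0.69) and not well above background in pre-cDC or CD8+ cDC, where Fli1 still read 2.11 and 2.28. Erg was at least 5.99-fold lower in pre-cDC than in CDP (adjusted p = 5.47e-07). Spic, a relative of Spi1, read 1.82 in CD8+ cDC and -1.69 in Neu (difference 3.50 ± 0.36, adjusted p = 2.79e-05), and was 2.01 ± 0.39 higher again in CD4+ than in CD8+ cDC (adjusted p = 0.00138). In GMP, 2 of 12 tested further ETS genes were called higher on the arrays labelled IRF8KO and 1 lower, where 25.5% of all genes tested were called. Etv5 was lower there by -1.07 ± 0.07 (adjusted p = 3.84e-05), and Elk3 was 0.76 ± 0.06 higher (adjusted p = 0.000136).

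**Figure D5:**
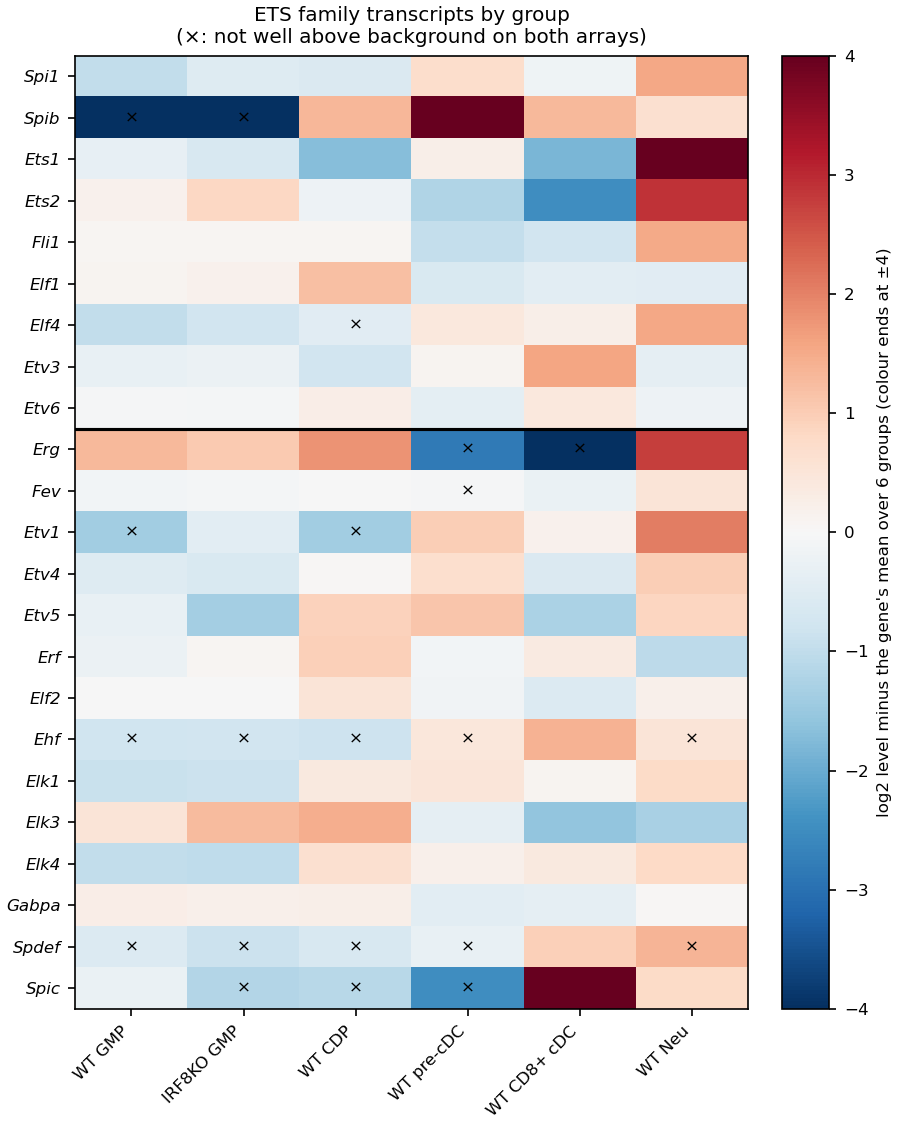
Mean level of each ETS gene in the 6 groups of the larger array design minus that gene's mean over the groups (log2, colour scale from -4 to 4, n = 2 arrays a group); the 9 studied genes are above the line, other ETS genes that were well above background in at least 1 group below it, and crosses mark groups not well above background on both arrays. Neu is the reddest column for Spi1, Ets1, Ets2, Fli1 and Elf4 and for Erg below the line, and pre-cDC for Spib.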

How the data were processed

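RNA from 7 cell groups was labelled with Cy3 and hybridised to 14 Agilent arrays, per the labels' protocols. The deposited scanner files hold intensity, background-subtracted within each array by Agilent Feature Extraction 10.7.3.1, per the file headers. The intensity table deposited by the authors has the same distribution in every array (median 46.02) and was used as an alternative; its steps are not given in the sources used here.

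Each log2 intensity was set against the 75th percentile of its array over non-control spots. Outlier spots were left out and no spot was saturated. Probes were named through RefSeq accessions (GRCm38.p6): 26762 of 55681 probes have 1 symbol and 28919 none. A gene is its brightest probe. Group means were fitted with limma 3.58.1 in R 4.3.3 (lmFit, eBayes) on the 12 arrays of the larger design, and on all 14 for CD4+ cDC. A gene was tested where its signal passed Agilent's background test on both arrays in 1 or both compared groups (two-sided, Benjamini-Hochberg over all of them, called at adjusted p under 0.05). Array number, not read depth, limits the precision. On simulated data, 95% of changes of 1 log2 unit were recovered over 13552 genes for CDP against WT GMP.

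Alternatives were other scalings, normexp (offset 50) on the median signal, since the files hold no mean signal, no filter on dim probes, the mean over probes, a replicate block, the 4 compared arrays alone and leaving out each array. The ETS genes and the gene lists were chosen with earlier results of these data known. All 9 ETS genes are named; from each list, at most the 4 called genes with the largest difference per comparison, those well above background on all 4 arrays first; and the 3 genes (5 for Spi1) with the most similar profile, of which 1 is not reported here. Genes outside this rule were chosen after their values were seen. Python 3.11.15 and matplotlib 3.10.9 drew the figures. Ly6C+ monocytes were not analysed here.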

Additional observations from a re-analysis of the deposited data

How the results depend on the processing

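Called differences above 1 log2 unit in the 9 genes kept their direction and call under the alternatives run, except Ets1 from WT GMP to CDP (-0.11 with normexp). Small differences did not. Directions turned as follows. With array medians, Fli1 was 0.067 and Etv6 0.038 in IRF8KO against WT GMP, Fli1 0.015 from WT GMP to CDP, Elf4 0.04 in CD8+ cDC against pre-cDC, 0.27 in CD4+ against CD8+ cDC and 0.15 in CD4+ cDC against pre-cDC. With normexp, Etv6 was -0.12 from WT GMP to CDP, Elf4 0.087 in CD4+ against CD8+ cDC and Ets1 -0.057 in CD4+ cDC against pre-cDC. Quantile normalization gave Etv6 -0.085 from WT GMP to CDP and Elf4 0.11 in CD4+ against CD8+ cDC. The percentile over detected probes gave Spi1 -0.088 and Etv6 -0.20 from WT GMP to CDP, and Elf4 0.18 in CD4+ against CD8+ cDC. The authors' deposited table gave Etv6 -0.079 from WT GMP to CDP, Etv3 0.09 in Neu against WT GMP and Elf4 0.11 in CD4+ against CD8+ cDC. The mean over probes gave Elf1 -0.026 in IRF8KO against WT GMP, -0.29 in CD8+ cDC and -0.15 in CD4+ cDC against pre-cDC. The cause was not tested.

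Genes called in IRF8KO against WT GMP numbered 3097, 1533 with array medians and 1877 to 1996 with 1 array left out; the ETS genes called there numbered 1 to 2 with 1 array left out. Without a filter on dim probes, 15482 genes were called in CD4+ cDC against pre-cDC, against 10205. With 1 array left out, Elf4 ran from -0.28 to 0.23 in CD4+ against CD8+ cDC, from -0.433 to 0.017 in CD4+ cDC against pre-cDC and from -0.45 to 0.06 in CD8+ cDC against pre-cDC. Etv3 ran from -0.02 to 0.14 in IRF8KO against WT GMP and from -0.146 to 0.011 in Neu against WT GMP. Fli1 ran from -0.02 to 0.008 in IRF8KO against WT GMP and from -0.024 to 0.013 in CDP against WT GMP.

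The replicate numbers do not pair the samples (correlations of deviations -0.0515 to 0.0358 over 21 pairs of groups). The replicate block changed 1 call among the ETS genes, Spib in CD8+ cDC against Neu (0.66, adjusted p = 0.0441). Having 2 arrays a group limits every comparison, and transcripts near background, such as Elf4 in CDP, are limited most.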
